A study of Mus musculus with 14 samples.

Results

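Ribosome biogenesis and nucleolar genes were followed across 4 groups of sorted mouse crypt cells. The members were the 40 listed genes, found as the probe sets whose platform symbol is one of them, among 24675 named probe sets on each array. All 40 had a probe set, and all 40 were among the 15873 genes that passed the filter on low values, so no member was lost. They fall into 5 roles: 3 genes of RNA polymerase I and rDNA transcription, 7 of the snoRNA particles and rRNA modification, 14 of the small subunit processome and 40S maturation, 12 of large subunit assembly, and 4 abundant nucleolar proteins. The lowest of 5 equal classes of mean level held 0 members, the second 1, the third 6, the fourth 18 and the highest 15.

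All mice carried an Lgr5-EGFP-IRES-CreERT2 cassette, in which the Lgr5 promoter drives EGFP and a Cre that tamoxifen activates. Mice labelled WT had only the cassette, and mice labelled Atg7KO also had floxed Atg7 alleles, Atg7(fl/fl). Tamoxifen was given to both kinds for 5 days in a row, 1 month before the tissue was taken, so the controls were exposed to active Cre as well. Cre acts where Lgr5 is expressed, so deletion in EGFP-low cells depends on their own or their ancestors' Lgr5 expression. The labels give no ages and do not name the exons that were removed. Intestinal crypts were dissociated and cells with low CD24 were sorted into a High EGFP gate, labelled intestinal stem cells, and a Low EGFP gate, labelled transit amplifying cells. The groups were WT-Low and Atg7KO-Low with 4 samples each, and WT-High and Atg7KO-High with 3 each. The samples are labelled as coming from individual mice, and each sample's RNA, 1 ng, was amplified and hybridised to 1 Mouse Gene 2.0 ST array.

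Ribosomes are built mainly in the nucleolus. RNA polymerase I transcribes the precursor of the large ribosomal RNAs, small nucleolar RNAs guide its methylation and pseudouridylation, the small subunit processome folds and cleaves the small subunit part, and a separate set of GTPases, helicases and scaffold proteins assembles the large subunit. Dividing crypt cells depend on this output, and the transcription factor Myc is a known activator of many of its genes. Atg7 encodes the enzyme that activates the ubiquitin-like proteins of autophagosome formation.

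Levels below are log2 values, on which 1 unit stands for a factor of 2, and a difference is a difference of group means on this scale with the standard error (SE) of the fit. A gene was called at an adjusted p under 0.05 in limma, with Benjamini-Hochberg adjustment over the 15873 genes tested. Array values are given in 1 order throughout, with the number in the sample title at the end of each array's name: WT-Low-341, WT-Low-407, WT-Low-409 and WT-Low-411, then Atg7KO-Low-356, Atg7KO-Low-353, Atg7KO-Low-387 and Atg7KO-Low-386, WT-High-388, WT-High-411 and WT-High-412, and Atg7KO-High-356, Atg7KO-High-348 and Atg7KO-High-386. As a check of the labels, Atg7 read 5.65 to 6.37 on the 7 Atg7KO arrays and 6.46 to 7.49 on the 7 WT arrays, and Lgr5 read 8.69 to 9.30 on the High and 4.65 to 6.25 on the Low arrays. The probe set of Atg7 can read exons outside the deleted part. Of the markers of other cells, 3 of 8 for leukocytes (Ptprc, Cd3g and Adgre1) and 4 of 9 for stroma and endothelium (Col3a1, Dcn, Pdgfra and Cdh5) were below the 40th percentile of every array, and the others were not. Among these, group means were 5.43 to 6.01 for Cd68 and 4.35 to 4.81 for Cd8a, both highest in Atg7KO-High. For Itgam they were 4.44 to 4.74, lowest in Atg7KO-High, and for Cd3e 3.76 to 4.04, highest in WT-High. Acta2 had group means of 5.16 to 5.36, and Vim 7.60 and 7.10 in the Low against 5.92 and 6.20 in the High gate. None of those tested was called in any comparison. The part of such cells in the members' values was not tested. The spread of an array's values, as their SD, ran from 1.90 to 2.06 and was lowest on Atg7KO-High-356 and WT-Low-411. A scaling that centred each array on its median moved the median of all genes in Atg7KO-High against WT-High from -0.03 to -0.14.

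**Figure D1:**
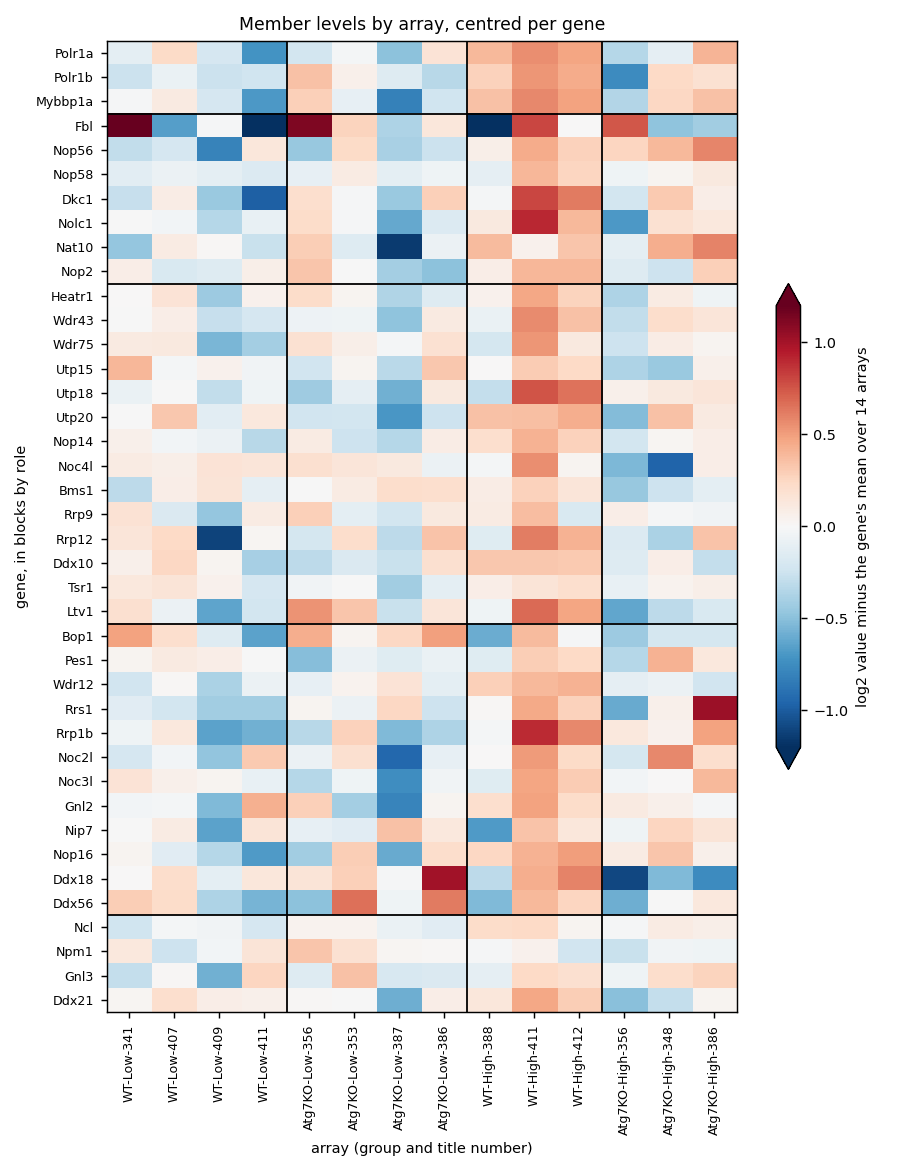
Heat map of the 40 members (rows, in blocks by role) on the 14 arrays (columns, by group and title number); colour shows the log2 value minus that gene's mean over all arrays, so rows cannot be compared in level. The columns of WT-High-411 and WT-High-412 are red in nearly every row, 40 and 37 of 40 members lying above their own mean, against 22 of 40 on WT-High-388.

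The first comparison asked how the High gate, labelled stem cells, and the Low gate, labelled transit amplifying cells, differ in wild-type crypts. In WT-High against WT-Low, 38 of 40 members had a higher mean in the High gate, with a median difference of 0.33, against a median of 0.03 over all genes tested, of which 45.3% were lower. Genes of the same level as most members had a median of 0.11 in both of the highest level classes, with 36.8% and 35.4% of them lower. No single member was called by limma (0 of 40, where 2.44% of all genes were called and 1.22% were called higher). At an unadjusted p under 0.05, 13 members were higher, where 8.88% of all genes were, and 0 were lower. In the fourth and highest level classes, 392 of 3174 and 433 of 3175 genes were higher at that p. The arrays of the gates did not overlap for 12 members, all higher, where 9.97% of all genes were higher without overlap. In the same level classes this held for 442 of 3174 and 469 of 3175 genes. The members' mean was 7.29, 7.76 and 7.59 on the WT-High arrays and 7.33, 7.33, 7.04 and 7.11 on the WT-Low arrays. WT-High-388 therefore lay inside the WT-Low range and the other WT-High arrays above it. WT-High-388 also had the highest enterocyte marker mean of its group, 9.26 against 7.77 and 8.40, and its part in the result was not tested. Without that array the median was 0.44, and without WT-High-411 it was 0.24. In bulk samples such as these, fewer cells of a type and less RNA per cell cannot be told apart.

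The 3 polymerase I genes had nearly equal differences between the wild-type gates. Polr1a, the largest subunit of the polymerase, read 7.56, 7.72 and 7.63 on WT-High and 7.05, 7.39, 6.96 and 6.45 on WT-Low arrays. Polr1b, the second-largest subunit, read 6.80, 7.06 and 6.98 against 6.27, 6.44, 6.27 and 6.29. Every WT-High array exceeded every WT-Low array for both, and for Mybbp1a, a nucleolar protein that binds Myb and takes part in rRNA synthesis, whose WT-High arrays ran from 7.85 to 8.08 and WT-Low arrays from 6.82 to 7.62. The differences were 0.67 (SE 0.23) for Polr1a, 0.63 (SE 0.22) for Polr1b and 0.67 (SE 0.25) for Mybbp1a, with adjusted p of 0.152, 0.172 and 0.209 in limma.

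All 7 genes of the snoRNA particles and rRNA modification had differences above 0, with a median of 0.41. Dkc1, the pseudouridine synthase of the H/ACA particle, had the largest difference of any member. It read 7.36, 8.19 and 8.01 on WT-High and 7.11, 7.47, 6.93 and 6.40 on WT-Low arrays. The groups overlapped, since WT-High-388 lay below WT-Low-407, and the difference was 0.87 (SE 0.26, adjusted p = 0.106 in limma). Nop56, a core protein of the box C/D particle, differed by 0.55 (SE 0.21), and its partner Nop58 by 0.30 (SE 0.14). Nolc1, a chaperone of these particles, differed by 0.58 (SE 0.25) without overlap, at 8.12 to 8.91 on WT-High and 7.66 to 8.00 on WT-Low arrays. Nop2, an rRNA cytosine methyltransferase, and Nat10, an rRNA cytidine acetyltransferase, differed by 0.34 (SE 0.20) and 0.41 (SE 0.28). Fbl, the methyltransferase of the box C/D particle, gave no usable comparison: it read 3.76 to 5.76 on WT-High and 3.52 to 6.46 on WT-Low arrays, a spread within each group far beyond its difference of 0.02 (SE 0.60).

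All 14 small subunit members were above 0 too, by a median of 0.32. The arrays did not overlap for Utp20, a large scaffold protein of the processome, for Nop14, a processome component, and for Ddx10, a helicase of the same stage. Nop14 read 7.45, 7.66 and 7.53 on WT-High and 7.31, 7.21, 7.18 and 6.91 on WT-Low arrays, a difference of 0.39 (SE 0.15). Ddx10 was nearly the same on the 3 WT-High arrays, at 7.20 to 7.21, and read 6.49 to 7.13 on WT-Low arrays. Ltv1, a factor of late 40S maturation, had the largest difference of this role, 0.55 (SE 0.24), with overlap. The smallest were 0.07 (SE 0.21) for Noc4l, the partner of Nop14, and 0.08 (SE 0.19) for Utp15, a subunit of the processome's UtpA complex. Between them lay Utp18 at 0.48, Rrp12 at 0.47, Wdr43 at 0.38, Wdr75 at 0.33, Heatr1 at 0.31, Bms1 at 0.22, Rrp9 at 0.19 and Tsr1 at 0.11.

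Of the 12 large subunit members 11 were above 0, with a median of 0.26 and a range of -0.05 to 0.77. Wdr12, 1 of the 3 PeBoW proteins needed to process the large subunit rRNA, came nearest to a call of all members. It read 6.79, 6.89 and 6.92 on WT-High and 6.27, 6.52, 6.13 and 6.43 on WT-Low arrays. The groups did not overlap, and the difference was 0.53 (SE 0.13, 95% interval 0.24 to 0.82, adjusted p = 0.0524 in limma). The values for the other PeBoW proteins were 0.08 (SE 0.18) for Pes1 and -0.05 (SE 0.26, 95% interval -0.59 to 0.50) for Bop1. Bop1 read 5.71, 6.69 and 6.29 against 6.78, 6.51, 6.15 and 5.66, so that the WT-High arrays lay within the WT-Low range. Rrp1b, a nucleolar protein of 60S assembly, read 5.81, 6.73 and 6.41 against 5.78, 5.96, 5.19 and 5.26 and differed by 0.77 (SE 0.26, adjusted p = 0.147). Nop16 differed by 0.67 (SE 0.22) and Rrs1, which helps to load the 5S particle, by 0.54 (SE 0.28), both without overlap. The GTPase Gnl2, Noc2l and Noc3l of the Noc complexes, and the helicases Ddx18 and Ddx56 differed by 0.14 to 0.34, and Nip7, a factor of 60S maturation, by 0.03.

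Among the abundant nucleolar proteins, nucleolin (Ncl) read 11.02, 11.04 and 10.83 on WT-High and 10.56, 10.78, 10.76 and 10.60 on WT-Low arrays. The gates did not overlap, at a difference of 0.29 (SE 0.12). Nucleophosmin (Npm1) read 9.42, 9.48 and 9.20 against 9.56, 9.19, 9.40 and 9.59, a difference of -0.07 (SE 0.15, 95% interval -0.38 to 0.25) with the WT-High arrays inside the WT-Low range. Nucleostemin (Gnl3), a GTPase named for its abundance in stem cells, differed by 0.26 (SE 0.20), and the helicase Ddx21 by 0.21 (SE 0.18).

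**Figure D2:**
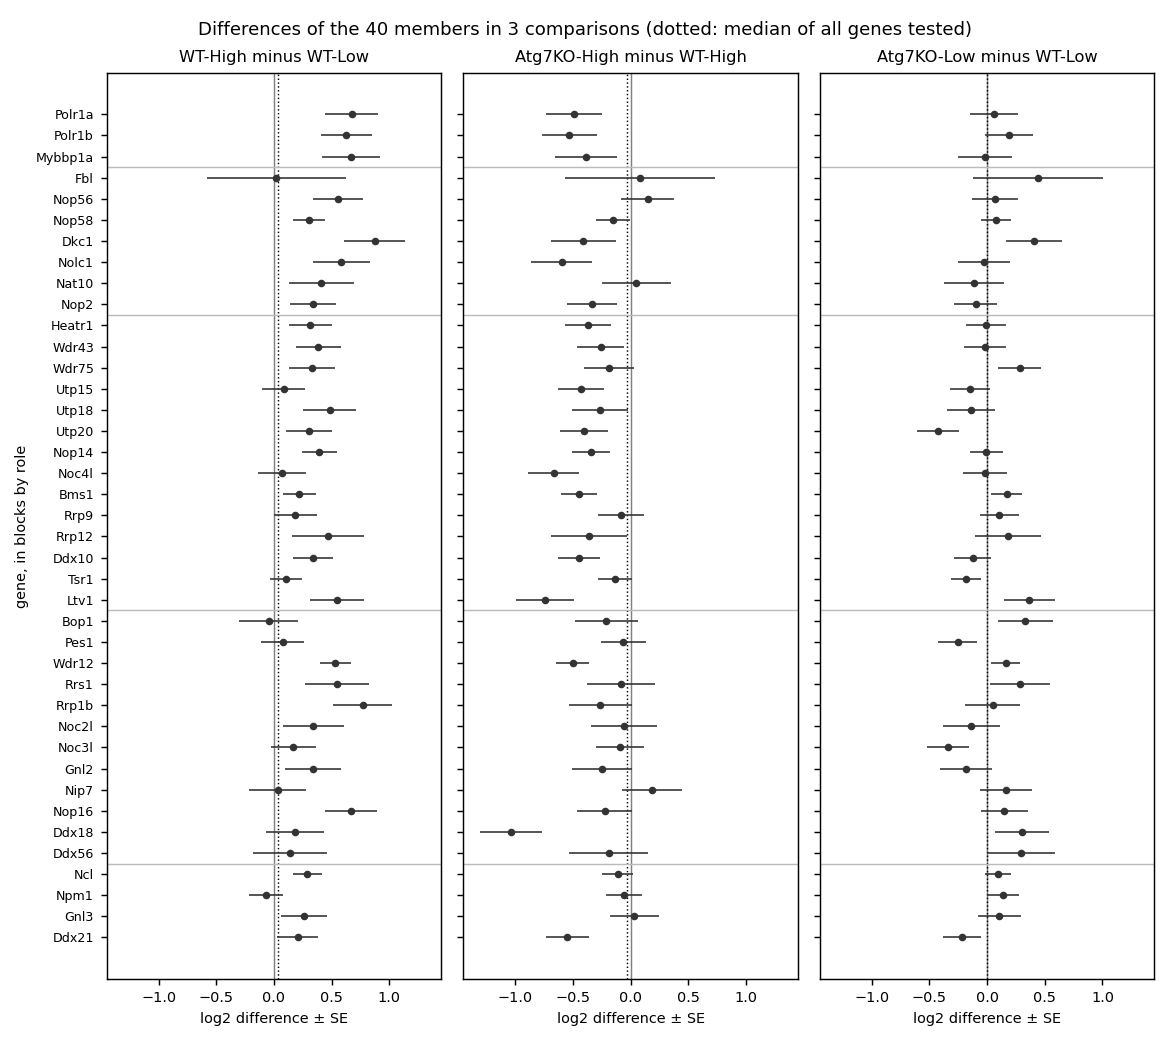
Log2 difference (dot) and SE (line) of each of the 40 members in WT-High minus WT-Low, Atg7KO-High minus WT-High and Atg7KO-Low minus WT-Low; dotted lines mark the median of all genes tested. The dots lie right of 0 for 38 members in the first panel, left of 0 for 35 in the second, and on both sides, 22 right and 18 left, in the third.

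The second comparison asked what loss of Atg7 does in the stem cell gate. In Atg7KO-High against WT-High, 35 of 40 members had a lower mean in Atg7KO-High, with a median difference of -0.26, where 53.8% of all genes were lower, with a median of -0.03. This lay close to all genes of the same level, whose medians were -0.20 and -0.24 in the level classes that hold most members, with 73.4% and 76.7% of them lower. No member was called (0 of 40 in limma, where 0.0126% of all genes were). At an unadjusted p under 0.05, 10 members were lower, where 9.88% of all genes were, and 0 were higher. In the fourth and highest level classes, 491 of 3174 and 746 of 3175 genes were lower at that p. For 10 members the arrays did not overlap, all lower, where 15.2% of all genes were lower without overlap. In the same level classes this held for 727 of 3174 and 1027 of 3175 genes. The members' mean was 7.07, 7.32 and 7.41 on the Atg7KO-High arrays against 7.29, 7.76 and 7.59 on the WT-High arrays, so the groups overlapped. Atg7KO-High arrays also had a smaller spread of all values, with an array SD of 1.94 ± 0.04 (SD, n = 3) against 2.04 ± 0.04 (SD, n = 3). With this array SD in the fit as a covariate, the members' median was 0.030, with 18 of 40 below 0. After a further quantile normalization it was -0.12 with 27 of 40 below 0, and after cyclic loess -0.12 with 25 of 40. Without WT-High-388 the median was -0.44, and without WT-High-411 it was -0.15. The WT-High arrays are the same ones that stand in the wild-type gate comparison, where they enter with the opposite sign.

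Ddx18, a helicase that acts on the large subunit precursor, had the largest difference. It read 4.53, 5.09 and 4.87 on Atg7KO-High and 5.30, 6.06 and 6.22 on WT-High arrays. All Atg7KO-High arrays lay below all WT-High arrays, and the difference was -1.03 (SE 0.27, 95% interval -1.61 to -0.46, adjusted p = 0.143 in limma). Wdr12 read 6.39, 6.43 and 6.28 against 6.79, 6.89 and 6.92, again without overlap, at -0.50 (SE 0.14, adjusted p = 0.166). Its partners Pes1 and Bop1 differed by -0.06 (SE 0.20) and -0.21 (SE 0.27). Noc4l read 6.37, 5.94 and 6.98 against 6.88, 7.46 and 6.94 and differed by -0.66 (SE 0.22, adjusted p = 0.199), with Atg7KO-High-386 inside the WT-High range.

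All 14 small subunit members were below 0 in Atg7KO-High, by a median of -0.37. In the fourth and highest level classes 73.4% and 76.7% of genes were below 0. Of these 14 members, 5 were lower without overlap, where 15.2% of all genes were. In the same level classes 727 of 3174 and 1027 of 3175 genes were lower without overlap. Ltv1 read 7.10, 7.42 and 7.55 on Atg7KO-High and 7.68, 8.41 and 8.21 on WT-High arrays, a difference of -0.74 (SE 0.25, adjusted p = 0.205 in limma). Bms1, a GTPase of the processome, read 6.82, 7.04 and 7.16 against 7.37, 7.56 and 7.43, a difference of -0.44 (SE 0.15, adjusted p = 0.210). Both groups were apart for these genes, as they were for Ddx10, Nop14 and Tsr1, a GTPase-like protein of late 40S maturation. The role's mean was 6.82, 7.00 and 7.13 on Atg7KO-High and 7.13, 7.56 and 7.37 on WT-High arrays, where the highest Atg7KO-High and the lowest WT-High array both read 7.13. The 3 polymerase I genes differed by -0.39 to -0.53, and Atg7KO-High-356 was the lowest array for each. Among the abundant proteins Ddx21, a helicase that couples polymerase I and II output, read 7.62, 7.84 and 8.16 against 8.26, 8.59 and 8.42, apart by -0.55 (SE 0.19), while Ncl differed by -0.11, Npm1 by -0.06 and Gnl3 by 0.03.

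The snoRNA particle genes were the most mixed, with 3 of 7 above 0. Nop56 read 9.18, 9.31 and 9.50 on Atg7KO-High and 8.99, 9.36 and 9.20 on WT-High arrays, overlapping at 0.15 (SE 0.23, 95% interval -0.34 to 0.64). Nat10 differed by 0.05 (SE 0.30) and Fbl by 0.08 (SE 0.65). On the other side, Nolc1 differed by -0.59 (SE 0.26) and Dkc1 by -0.41 (SE 0.28). Nip7, the highest of all members in this comparison, read 7.20, 7.51 and 7.41 against 6.58, 7.60 and 7.39, a difference of 0.19 (SE 0.26) in which WT-High-388 alone was low. Without that array the value for Nip7 was -0.12.

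**Figure D3:**
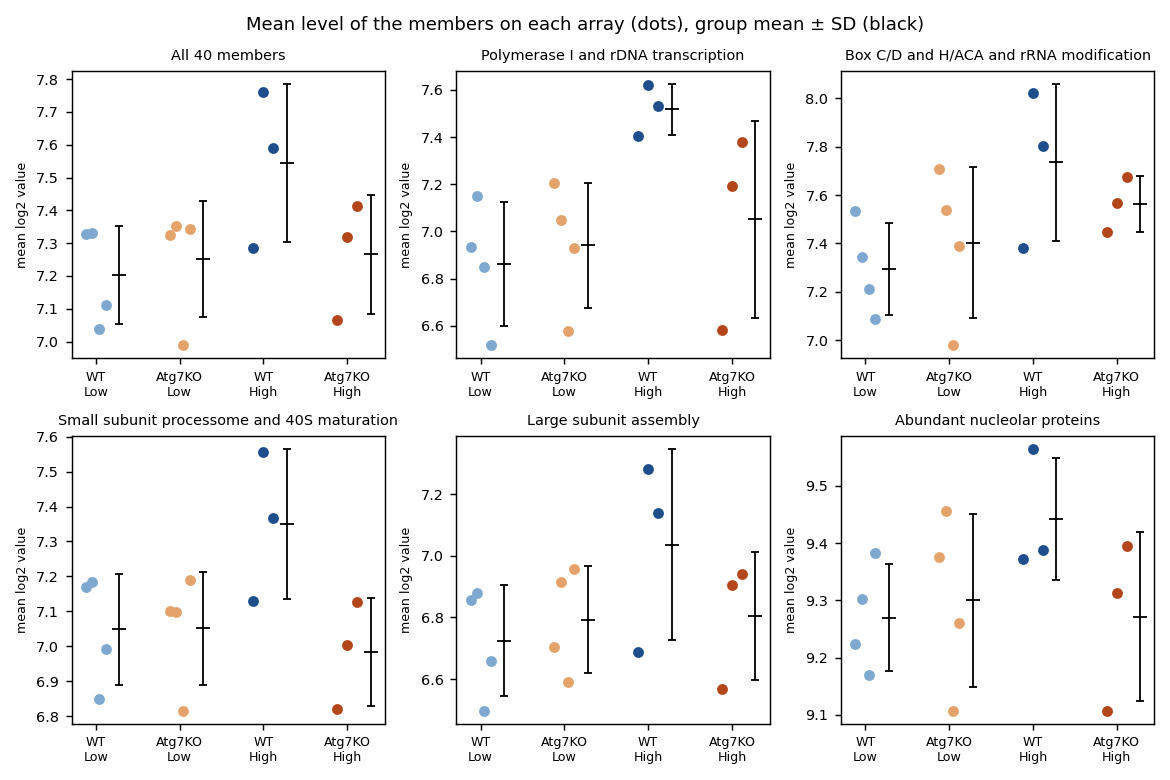
Mean log2 level on each array (dots) of all 40 members and of each role, with the group mean and SD (black). For all members the means are 7.29 to 7.76 on WT-High, 7.07 to 7.41 on Atg7KO-High, 7.04 to 7.33 on WT-Low and 6.99 to 7.35 on Atg7KO-Low arrays; the vertical scales differ between panels and do not start at 0.

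The third comparison set the gates against each other within the knockout. In Atg7KO-High against Atg7KO-Low, 24 members were above and 16 below 0, with a median of 0.06 against 0.02 over all genes. The members' median lay above those of the fourth and highest level classes, -0.08 and -0.19, where 57.2% and 67.6% of genes were below 0. The members' split moved with the scaling, with 23 of 40 below 0 after median centring and 12 after either cyclic loess or a further quantile normalization. Ddx18 was the only member called (1 of 40, where 10.9% of all genes were called, 6.44% lower and 4.48% higher). It read 4.53, 5.09 and 4.87 on Atg7KO-High and 5.78, 5.90, 5.61 and 6.63 on Atg7KO-Low arrays. The groups were apart, and it fell by 1.15 on the log2 scale (SE 0.25, adjusted p = 0.0110 in limma). Without Atg7KO-High-356, the lowest array, the difference was -1.001 and the adjusted p in limma 0.0608. Fitted with the array SD as a covariate, Ddx18 had a difference of -0.88 and adjusted p = 0.127. At an unadjusted p under 0.05, 5 members were lower, where 14.4% of all genes were, and 1 was higher, where 12.6% were. Without overlap, 4 were lower, where 11.8% of all genes were, and 2 were higher, where 10.8% were. The share called and these shares lay near or below the background, and are read as no result about the members.

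The members next in line after Ddx18 were of opposite sign. Nop56 read 9.18, 9.31 and 9.50 on Atg7KO-High and 8.46, 9.15, 8.53 and 8.66 on Atg7KO-Low arrays, apart by 0.63 (SE 0.21, adjusted p = 0.0724 in limma). Its adjusted p ran from 0.0283 to 0.238 over the 25 alternatives, and it was called under 5 of them, among them without Atg7KO-Low-353 (0.0291), without WT-Low-409 (0.0442) and without WT-Low-411 (0.0467). Its difference ran from 0.55 to 0.78 when 1 array was left out. Bms1 read 6.82, 7.04 and 7.16 against 7.27, 7.38, 7.49 and 7.49, apart by -0.40 (SE 0.14, adjusted p = 0.0893). Noc4l differed by -0.57 (SE 0.21) with overlap, and was not called (adjusted p = 0.0900). Its value depended on single arrays: it was -0.85 without Atg7KO-High-386 (adjusted p = 0.0115) and -0.33 without Atg7KO-High-348 (adjusted p = 0.366). Noc3l read 6.53, 6.57 and 6.96 against 6.23, 6.52, 5.83 and 6.53, a difference of 0.41 (SE 0.20), and Nat10 differed by 0.58 (SE 0.28). Bop1 and Npm1 were lower without overlap, by -0.59 (SE 0.26) and -0.26 (SE 0.15).

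**Figure D4:**
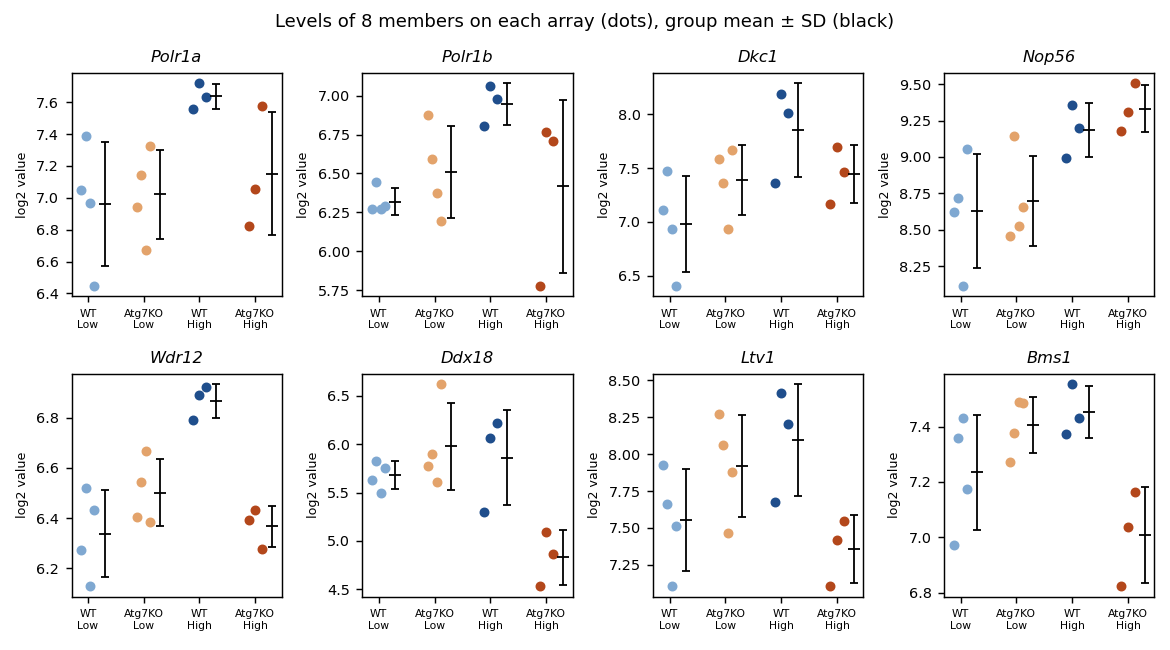
Log2 levels of Polr1a, Polr1b, Dkc1, Nop56, Wdr12, Ddx18, Ltv1 and Bms1 on each array (dots) with the group mean and SD (black); the vertical scales differ and do not start at 0. The Atg7KO-High dots of Ddx18, at 4.53 to 5.09, lie below the dots of every other group, and the WT-High dots of Wdr12, at 6.79 to 6.92, lie above them.

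The fourth comparison asked about loss of Atg7 in the Low gate. In Atg7KO-Low against WT-Low, 22 members were above and 18 below 0, with a median of 0.07 against 0.00 over all genes. The medians of the fourth and highest level classes were 0.01 and 0.06. No member was called (0 of 40 in limma, where 0.0063% of all genes were), and at an unadjusted p under 0.05 only Utp20 was lower (1 of 40, where 3.4% of all genes were) and 0 were higher. Utp20 read 6.20, 6.20, 5.72 and 6.18 on Atg7KO-Low and 6.42, 6.75, 6.30 and 6.55 on WT-Low arrays. All Atg7KO-Low arrays were lower, and the difference was -0.43 (SE 0.18, 95% interval -0.82 to -0.04, adjusted p = 0.665). Pes1, at 7.61, 8.05, 7.98 and 8.04 against 8.16, 8.23, 8.20 and 8.12, was the other member lower without overlap (2 of 40, where 1.69% of all genes were), at -0.26 (SE 0.17). None was higher without overlap (0 of 40, where 1.71% of all genes were). Noc3l differed by -0.34 (SE 0.18), and the highest by p were Dkc1 at 0.41 (SE 0.24), Ltv1 at 0.37 (SE 0.22) and Wdr75, a processome scaffold protein, at 0.28 (SE 0.19). Without WT-Low-411 the value for Dkc1 was 0.22, and without WT-Low-409 those for Ltv1 and Wdr75 were 0.22 and 0.16. The median SE was 0.20, so differences of the size seen between the wild-type gates could be missed here. For Ncl, which varied little, the 95% interval was -0.15 to 0.34, and for Fbl it was -0.76 to 1.64.

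Whether the effect of Atg7 loss differed between the gates was tested as the difference of both effects. It was below 0 for 32 of 40 members, with a median of -0.32, where 52.9% of all genes were below 0 with a median of -0.03, and the medians of the level classes that hold most members were -0.21 and -0.30. The count below 0 was 37 after median centring, 26 after either cyclic loess or a further quantile normalization, and 17 with the array SD as a covariate. No member was called (0 of 40 in limma, where 0.0063% of all genes were), and 7 were lower at an unadjusted p under 0.05, where 8.49% of all genes were. These were Ddx18 at -1.33 (SE 0.36, adjusted p = 0.226), Wdr12 at -0.66 (SE 0.19, adjusted p = 0.226), Ltv1 at -1.11 (SE 0.33, adjusted p = 0.235), Dkc1 at -0.82, Polr1b at -0.72, Noc4l at -0.64 and Bms1 at -0.62. In the highest level class 645 of 3175 genes were lower at an unadjusted p under 0.05. In the fourth level class the share was smaller than this, but above that of all genes. Among the members, the highest values by p were 0.25 for Noc3l, 0.19 for Pes1 and 0.17 for Nat10.

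Other genes of the same pathway, from lists fixed for 5 steps of it, were read beside the members, 127 in all. In WT-High against WT-Low, 119 of the 127 were above 0, with a median of 0.31, and 1 was called, where 1.22% of all genes were called higher. This was Nhp2, a core protein of the H/ACA particle that also holds Dkc1, which rose by 1.06 (SE 0.21, adjusted p = 0.0159 in limma). The call was lost without WT-High-411 (0.90, adjusted p = 0.101) and without WT-High-412 (1.11, adjusted p = 0.0580). The medians of the 5 lists ran from 0.26 for small subunit genes to 0.39 for snoRNA particle genes. In Atg7KO-High against WT-High, 105 of the 127 were below 0, with a median of -0.32, and 0 were called, where 0.0126% of all genes were. The medians of all genes in the fourth and highest level classes were -0.20 and -0.24. In those classes 491 of 3174 and 746 of 3175 genes were lower at an unadjusted p under 0.05. The part of array spread in the values of the 127 genes was not tested. At an unadjusted p under 0.05, 36 of the 127 were lower, where 9.88% of all genes were, and 1 was higher, where 950 of 15873 were. The smallest p values there belonged to Baz2a, which silences rDNA repeats, at -0.69 (SE 0.16), Pno1, a 40S assembly factor, at -0.78 (SE 0.19), and Mtrex, the helicase that feeds the RNA exosome, at -0.74 (SE 0.18), each with adjusted p = 0.131. In Atg7KO-Low against WT-Low the median was 0.12, with 94 of 127 above 0, 0 called, and 6 higher and 2 lower at an unadjusted p under 0.05. Of all 15873 genes, 612 were higher and 540 lower at that p, and 0.0063% were called.

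Between the knockout gates the 127 genes had a median of -0.14, and 8 were called, where 10.9% of all genes were, 4.48% higher and 6.44% lower. The 3 that rose were Mdn1, the large AAA ATPase that strips factors from the 60S precursor, by 1.02 (SE 0.19, adjusted p = 0.00471 in limma), Taf1a, a subunit of the polymerase I selectivity factor, by 0.91 (SE 0.20), and Zfp622, a late 60S factor, by 0.46 (SE 0.14). The 5 that fell included Znrd1, a small subunit of polymerase I, by 0.93 (SE 0.22), Pno1 by 0.74 (SE 0.18) and Krr1, a processome protein, by 0.74 (SE 0.20). Without Atg7KO-High-356, 2 of these 8 genes were still called, without Atg7KO-High-348 it was 3, without Atg7KO-High-386, Atg7KO-Low-353, Atg7KO-Low-387 or Atg7KO-Low-386 it was 5 each, and with the array SD as a covariate it was 1.

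**Figure D5:**
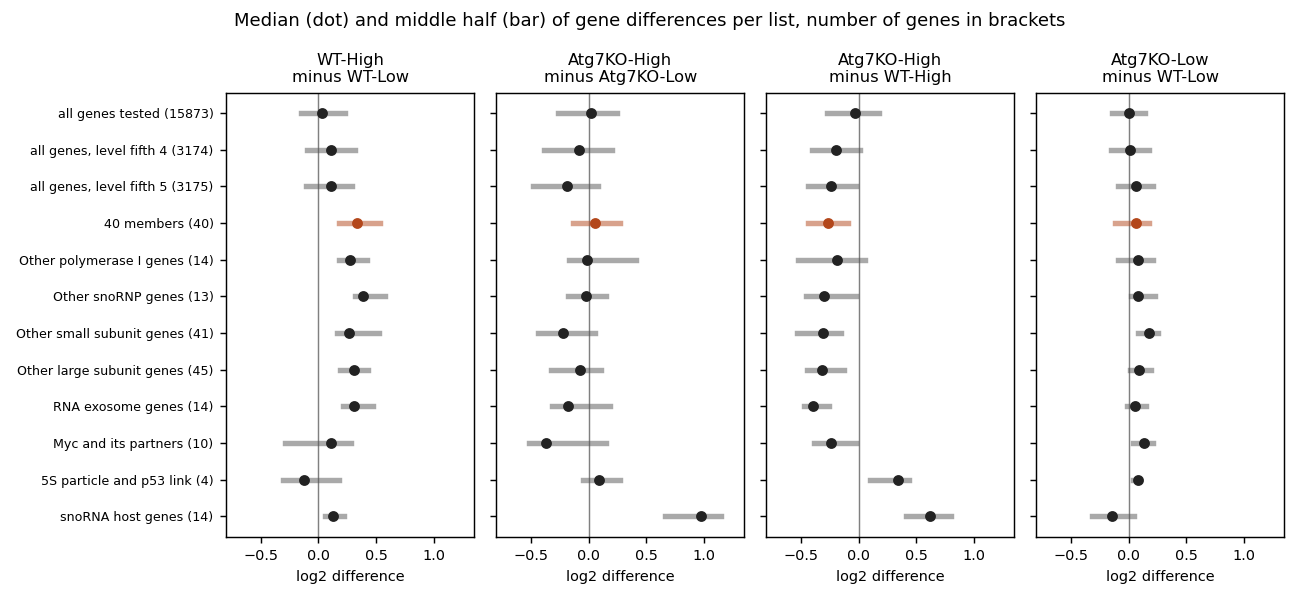
Median (dot) and interquartile range (bar) of the log2 differences in 4 comparisons, for all genes tested, for all genes in the 2 highest level classes, for the 40 members and for 8 lists of other genes, with the number of genes in brackets. In Atg7KO-High minus Atg7KO-Low the snoRNA host genes lie at 0.98, right of all other rows, and the members at 0.06.

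Genes that host snoRNAs in their introns and whose spliced RNA is mostly noncoding were described separately. Their median between the knockout gates was 0.98, with 14 of 14 above 0 and 8 called higher, where 4.48% of all genes were called higher. Snhg12 rose by 1.34 (SE 0.28, adjusted p = 0.00828 in limma), Snhg20 by 1.17 (SE 0.25), Snhg7 by 1.13 (SE 0.26) and Snhg4 by 1.01 (SE 0.24). The list's mean was 9.09, 8.99 and 8.99 on the Atg7KO-High arrays, 8.45, 8.41 and 8.44 on WT-High, 8.00, 8.64, 8.01 and 8.01 on Atg7KO-Low and 8.19, 8.23, 7.91 and 8.80 on WT-Low arrays. The Atg7KO-High arrays were thus the highest of all 14. In Atg7KO-High against WT-High the median was 0.62, with 13 of 14 above 0, 9 higher at an unadjusted p under 0.05 and 0 called. Of all 15873 genes, 950 were higher at that p and 0.0126% were called. The Atg7KO-High arrays also had a narrower spread, as given above. Within groups, the array with the lowest SD had the highest list mean in Atg7KO-High (Atg7KO-High-356), WT-High (WT-High-388) and WT-Low (WT-Low-411). In Atg7KO-Low the highest list mean lay on Atg7KO-Low-353, with an SD of 2.03, and the array with the lowest SD, Atg7KO-Low-387 at 1.98, read 8.01. The part of array spread in this list's values was not tested. In the High gate it cannot be told apart from genotype, since array SDs were 1.90 to 1.98 on Atg7KO-High and 1.99 to 2.06 on WT-High arrays. Of the 8 called genes 3 were still called without Atg7KO-High-356, 3 without Atg7KO-High-348, 5 without Atg7KO-Low-386 and 1 with the array SD as a covariate.

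Myc and the genes that pair with it were a further list of 10. Myc read 9.65, 9.74 and 9.78 on WT-High and 9.09, 9.00, 8.68 and 8.92 on WT-Low arrays. It rose by 0.80 between the wild-type gates (SE 0.13, adjusted p = 0.00746 in limma) without overlap, and was called under all 25 alternatives. In Atg7KO-High, at 9.37, 9.44 and 9.46, all arrays were below the WT-High arrays, by -0.30 (SE 0.14, adjusted p = 0.324). In Atg7KO-Low, at 9.36, 9.24, 9.38 and 9.09, all arrays were above the WT-Low arrays, by 0.35 (SE 0.12, adjusted p = 0.613), though the nearest arrays of both groups read 9.09. The difference of both effects was -0.64 (SE 0.19, adjusted p = 0.226). Max, the partner through which Myc binds DNA, fell between the knockout gates by 0.49 (SE 0.13, adjusted p = 0.0235), and Mlx, a related partner of Mondo proteins, by 0.77 (SE 0.21, adjusted p = 0.0295). Each of these calls was lost under 9 of 25 alternatives, with the smallest differences at -0.28 for Max (cyclic loess, adjusted p = 0.167) and -0.62 for Mlx (without Atg7KO-Low-386, adjusted p = 0.0785). In the wild-type gates Max differed by 0.00 (SE 0.13). Of 6 listed genes that link the 5S particle to p53, 4 were found: Rpl5, Mdm2, Mdm4 and Cdkn2a. They had a median of -0.12 in WT-High against WT-Low and 0.34 in Atg7KO-High against WT-High, with 0 called. In the latter 3 were above 0, and Cdkn2a, whose products include the nucleolar protein Arf, differed by 0.55 (SE 0.14, adjusted p = 0.133). Its 1 probe set gives no separate value for Arf. Group means of Cdkn2a were 5.18 in Atg7KO-High and 4.63 in WT-High, where array medians ran from 4.30 to 4.49. Rpl5, the 5S particle protein among the 4, went the other way by -0.43, with group means of 5.99 in Atg7KO-High and 6.42 in WT-High.

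The members' promoters were searched for the palindrome CACGTG, the E-box that Myc and Max are known to bind, which reads the same on both strands. RefSeq promoter windows of the GRCm38.p6 build, with gene starts as that annotation gives them, were at hand for 34 of 40 members, with 38 starts in all. In the 250 bases before the start, 2 of 38 member promoters held the motif (5.26%), against 7.77% of the 15217 promoters of genes tested and 6.02% of all 32851 promoters. With the 50 bases after the start added, a window counted after the first share had been seen, 8 of 38 did (21.1%), against 9.29% of those of genes tested and 7.15% of all. A match is a description of letters and not of binding. Shown are the 120 bases before the start of Utp18, a processome protein, and Nop2, which hold the motif (in capitals), and of Ddx18, the member called between the knockout gates, which does not.
Utp18, chr11:93885767-93885886, minus strand: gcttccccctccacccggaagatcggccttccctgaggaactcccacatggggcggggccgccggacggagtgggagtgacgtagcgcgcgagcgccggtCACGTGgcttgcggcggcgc
Nop2, chr6:125131763-125131882, plus strand: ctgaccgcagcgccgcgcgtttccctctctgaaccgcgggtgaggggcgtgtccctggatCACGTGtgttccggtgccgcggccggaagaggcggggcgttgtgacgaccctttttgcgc
Ddx18, chr1:121567981-121568100, minus strand: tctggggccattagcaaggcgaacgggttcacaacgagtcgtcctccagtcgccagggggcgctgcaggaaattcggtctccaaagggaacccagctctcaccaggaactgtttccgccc

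The other 6 members with the motif carried it within the 50 bases after the annotated start. They are shown with up to 10 bases on each side and the motif in capitals, to let the flanks be compared.
Mybbp1a, chr11:72441357-72441376, plus strand: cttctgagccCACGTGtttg
Wdr43, chr17:71616222-71616247, plus strand: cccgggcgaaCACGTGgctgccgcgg
Utp20, chr10:88826765-88826787, minus strand: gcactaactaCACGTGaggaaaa
Tsr1, chr11:74898094-74898119, plus strand: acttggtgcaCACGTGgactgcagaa
Ltv1, chr10:13193094-13193119, minus strand: cctgtggaccCACGTGtggagctgcc
Pes1, chr11:3963967-3963992, plus strand: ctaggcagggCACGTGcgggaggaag
Of these genes, 4 belong to the small subunit role. Their differences in WT-High against WT-Low were 0.67 for Mybbp1a, 0.55 for Ltv1, 0.38 for Wdr43, 0.30 for Utp20, 0.11 for Tsr1 and 0.08 for Pes1, and those of the members with an upstream motif were 0.48 for Utp18 and 0.34 for Nop2. None of the 8 was called in any comparison.

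Markers of division and of other crypt cells were read beside the members. The 11 proliferation genes had a median of 0.30 in WT-High against WT-Low, with 10 of 11 above 0, and of -0.49 in Atg7KO-High against WT-High, with 11 of 11 below 0 and 0 called. Their mean was 8.89 to 9.14 on WT-High, 8.41 to 8.63 on Atg7KO-High, 8.52 to 8.87 on WT-Low and 8.51 to 8.79 on Atg7KO-Low arrays, so the 2 High groups did not overlap. Goblet markers were at -1.40 between the wild-type gates, with 6 of 9 called, where 2.44% of all genes were. Between the knockout gates they were at -2.15, with 9 of 9 called, where 10.9% of all genes were. Enteroendocrine markers were at -2.03 between the wild-type gates, with 9 of 9 below 0 and 4 called. Between the knockout gates these enteroendocrine markers were at -2.06, with 9 of 9 below 0 and 7 called. The Low gate thus held more RNA of such differentiated cells than the High gate. In Atg7KO-High against WT-High the medians were -0.98 for the 9 goblet markers, with 9 of 9 below 0, -1.23 for the 8 Paneth markers, with 7 of 8 below 0, and -0.52 for the 9 enterocyte markers, with 9 of 9 below 0. Not all lists fell alike. The median was -0.06 for enteroendocrine markers (6 of 9 below 0) and -0.27 for epithelium (8 of 8). It was 0.18 for tuft markers (2 of 5 below 0) and 0.05 for Lgr5 stem cell markers (4 of 10). Of all these markers 0 were called. The goblet mean was 8.14, 8.97 and 9.99 on the Atg7KO-High arrays and 9.67 to 10.20 on the WT-High arrays. The part of division or of cell makeup in the members' values was not tested.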

How the data were processed

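RNA was read on 14 arrays in 4 groups, taken from the endings of the sample titles. The deposited values are log2 values, 1 per probe set and array, produced by the authors by RMA in Affymetrix Expression Console, as the submitters' processing notes say. This method corrects background, quantile normalizes and summarises the probes of a set, so global shifts between arrays are reduced and large differences can be narrowed. Some shift remained. Array medians ran from 4.30 to 4.49, at 4.41 to 4.49 on Atg7KO-High and 4.32 to 4.40 on WT-High arrays. Neither the tools' versions nor the way probes were grouped into sets is given in the sources used here. Precision is limited by the number of arrays, which have no read depth.

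Of 25429 probe sets, 24675 have 1 gene symbol in the platform annotation, 754 have none and were left out, and each gene had 1 probe set. Genes that reached an array's 40th percentile on 3 or more arrays were tested (15873 genes). Group means were fitted over the 14 arrays with limma 3.58.1 (lmFit, eBayes) in R 4.3.3, with 10 residual and 4.54 prior degrees of freedom. P-values are two-sided and Benjamini-Hochberg adjusted over all genes tested, and every adjusted p in the text comes from limma. The fit was tested on simulated data. P-values measure the spread between these samples, which the labels describe as individual mice. They do not say that a title number names the animal. For that reason the numbers were not taken to pair samples in the main fit. Same-numbered High and Low arrays deviated from their group means with correlations of 0.11 and 0.18 in Atg7KO and -0.04 in WT. Those of different-numbered arrays ran from -0.15 to 0.09 in Atg7KO and from -0.17 to 0.16 in WT. Whether same-numbered samples share a mouse is not known, so the gates may not be fully independent.

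The members, the pathway and marker lists and the tests were chosen with earlier results of these data known. All members may be named by role. Array values were given for called members, for the 3 smallest p in each direction where fewer than 3 were called, and for some others chosen after their values were seen. Per pathway list, up to 4 called genes or the smallest p were named, fewer where space required. The promoter rule took members with CACGTG in the 250 bases before the start, and 1 without.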

Additional observations from a re-analysis of the deposited data

Results flagged for a closer look

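In groups of 4, a lone high or low array was looked for among the 40 members, their mean and the means of the roles, 92 groups in all. Dixon's test at the 95% level marked 6, and chance marks about 1 group in 20. Atg7KO-Low-387 was low for Utp20, at 5.72 against 6.18 to 6.20 on the other Atg7KO-Low arrays, and for Ddx21, at 7.54 against 8.12 to 8.20. The mean of all 40 members was low on the same array, at 6.99 against 7.32 to 7.35. Utp20 and Ddx21 both enter the Atg7KO-Low comparison, where Utp20 differed by -0.43. WT-Low-409 was low for Rrp12, a protein of small subunit export, at 4.80 against 5.94 to 6.16. Atg7KO-Low-353 was high for Gnl3, at 9.25 against 8.71 to 8.75. WT-Low-407 was high for Polr1b, at 6.44 against 6.27 to 6.29, still below every WT-High array. Groups of 3 arrays are too small for this test.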

How the results depend on the processing

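All comparisons were recomputed under 25 alternatives (24 for the difference between gates), 14 of which left out 1 array each. No member was called under any of them in Atg7KO-Low against WT-Low or for the difference between gates. In Atg7KO-High against WT-High, array weights called 2 members, Wdr12 and Ddx18, where they called 4.43% of all genes, and the other settings 0. In WT-High against WT-Low, Wdr12 was the 1 member called with no filter, where 1.31% of all genes were, and the 1 called with a strict filter, where 4.13% were, and array weights called 5 members, where 7.57% of all genes were called. With the title number as a replicate block, 1 member, Wdr12, was called there, where 2.8% of all genes were, and the block changed no other count of called members. In Atg7KO-High against Atg7KO-Low, quantile normalization again and cyclic loess each called 2, Nop56 and Ddx18, where 10.7% and 10.3% of all genes were called. With the array SD as a covariate 0 were called (3.12% of all genes), and without the 2 arrays of narrowest spread 0 (6.99%). Leaving out 1 array gave 0 to 2: 0 without Atg7KO-High-356, and 2 without Atg7KO-Low-353, WT-Low-409, WT-Low-411 or Atg7KO-High-386. The members' median in Atg7KO-High against WT-High was 0.030 with the array SD as a covariate, a reversed sign, -0.12 after either a further quantile normalization or cyclic loess, and -0.44 to -0.15 when 1 array was left out. It ran from 0.23 to 0.44 in WT-High against WT-Low, from -0.02 to 0.13 in Atg7KO-Low against WT-Low and from -0.04 to 0.24 in Atg7KO-High against Atg7KO-Low. The causes were not tested, except that fewer arrays or more genes tested change the adjustment by construction. The differences of Bop1, Npm1, Nip7 and Nat10, none of them called, changed sign under some settings, as that of Bop1 did without WT-High-388 (0.21).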
